A study of Mus musculus with 4 samples.

Results

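Divergent bidirectional promoters are stretches of DNA that lie between the 5′ ends of a pair of genes transcribed away from each other. Pairs were taken from the GENCODE vM1 annotation of the mouse genome (build mm9, NCBIM37). Both genes had to be protein-coding, on opposite strands of chromosomes 1 to 19, with the transcription start site (TSS) of the minus-strand gene 0 to 1000 bp before the TSS of the plus-strand gene. The TSS was the 5′ end of the annotated gene. This gave 789 pairs, which hold 1562 of 21418 protein-coding genes (7.29%). A gene took part in more than 1 pair in 32 of the pairs, so the pairs are not all independent sites. They lie at 786 distinct positions and carry 781 distinct pairs of symbols. The spacing between the paired TSSs ran from 1 to 987 bp, with quartiles at 73, 141 and 271 bp, and 622 pairs (78.8%) had a spacing of at most 300 bp. All windows were centred on the midpoint of the pair. They were set beside 15296 protein-coding TSSs with no TSS of any other gene within 5 kb, called lone TSSs below.

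The study mapped acetylated histone H3 in mouse embryonic stem (mES) cells by chromatin immunoprecipitation and sequencing (ChIP-seq). It has 4 libraries, each from untreated cells of the E14 line, strain 129P2/OlaHsd, at passage 25-30. The first was made with the rabbit polyclonal antibody AB4441 against H3K9ac. A pair of libraries was made with mouse monoclonal antibodies against H3K14ac, clones 13HH3 and 7G8, and the last was input DNA without antibody. Per the methods, the cells were wild-type ES cells from blastocysts, first kept on feeder cells and then passaged on gelatin without them. Fragments of 150 to 350 bp were selected, per the labels. The files hold 23183487 tags for H3K9ac, 22365676 for 13HH3, 23839094 for 7G8 and 19313927 for input. Each antibody has 1 library, so no test between libraries or conditions was possible, and 95% intervals cover the counting of tags or the sampling of sites within 1 library only. PCR copies without molecular identifiers are not independent molecules, which these intervals do not cover.

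The cells and the input were checked first. H3K9ac was at 2-fold or more over input within 1 kb of the gene 5′ end at 4 of 5 markers of ES cells. The exception was Esrrb, at log2 0.15. The same held at 2 of 5 markers of feeder fibroblasts and at 0 of 5 markers of other tissues. Over all 21418 protein-coding TSSs of chromosomes 1 to 19 the share was 60.7%, so lists of 5 genes say little about the cells. At the fibroblast markers log2 H3K9ac over input ran from -0.66 to 1.31, and the part of feeder cells in the values below was not tested. Away from TSSs, the ratio of H3K9ac to input tags differed between chromosomes, from 0.631 on chromosome 17 to 0.994 on chromosome 12, and the ratios of 13HH3 (0.710 to 1.20) and 7G8 (0.699 to 1.24) were lowest and highest on the same chromosomes. On chromosome 1, the ChIP libraries shared 2.62% to 3.43% of their exact tag positions with each other and 0.666% to 0.799% with input. The names of both H3K14ac files also carry the same tag, of the kind used for sequencing lanes, and that of H3K9ac another. The source of the shared positions, and their part in the likeness of libraries below, was not tested.

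At divergent promoters polymerases set out in both directions, and each TSS has its own first nucleosome on the side of its gene. In mammals such promoters are mostly rich in CpG, often lack a TATA box, and are known for genes of DNA repair, of mitochondria and of the histone clusters. H3K9ac and H3K14ac are placed by acetyltransferase complexes on nucleosomes beside active TSSs.

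The sequence between the paired TSSs is shown for pairs that stand for the range of the acetylation data described further on. They are from the NCBIM37 (mm9) genome and read 5′ to 3′ on the forward strand, so the minus-strand gene starts to the left and the plus-strand gene to the right. Capitals mark matches on either strand to the 6 motifs that were searched. These were the TATA box TATAAA, the CCAAT box CCAAT, the GC box GGGCGG, the ETS motif CCGGAAGT, the NRF1 motif GCATGCGC and the YY1 motif AAGATGGCG. Reverse complements such as ATTGG for CCAAT and CCGCCC for GGGCGG are in capitals as well.

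Brca1, the breast cancer DNA repair gene, and Nbr1, an autophagy receptor, are a classical divergent pair with 193 bp between them at chr11:101413270-101413462.
Brca1/Nbr1: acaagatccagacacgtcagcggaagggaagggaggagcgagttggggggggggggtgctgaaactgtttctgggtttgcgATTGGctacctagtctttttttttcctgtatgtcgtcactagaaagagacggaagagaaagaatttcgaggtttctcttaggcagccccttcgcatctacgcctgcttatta

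Mrps12, a mitochondrial ribosomal protein, and Sars2, the mitochondrial seryl-tRNA synthetase, share 170 bp at chr7:29526840-29527009 with 4 CCAAT boxes and 1 GC box.
Mrps12/Sars2: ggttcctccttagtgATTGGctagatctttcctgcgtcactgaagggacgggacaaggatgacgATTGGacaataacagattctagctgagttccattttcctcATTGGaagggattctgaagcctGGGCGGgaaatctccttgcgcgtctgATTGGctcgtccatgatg

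Zwilch, a kinetochore protein, and Rpl4, a ribosomal protein, flank the 282 bp at chr9:64020912-64021193, the pair with the most H3K9ac tags in excess of input. It has a GC content of 37.6%.
Zwilch/Rpl4: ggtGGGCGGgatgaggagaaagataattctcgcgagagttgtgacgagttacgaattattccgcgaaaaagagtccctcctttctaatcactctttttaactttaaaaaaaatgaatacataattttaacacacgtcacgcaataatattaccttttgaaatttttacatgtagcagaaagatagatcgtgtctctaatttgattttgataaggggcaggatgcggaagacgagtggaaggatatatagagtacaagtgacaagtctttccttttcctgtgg

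Dtl, an adaptor of a ubiquitin ligase that acts in S phase, and Ints7, a subunit of the Integrator complex, flank 228 bp at chr1:193399414-193399641. These hold 27 CpG, a CCAAT box and an NRF1 motif. The pair was among the 5 with the most H3K9ac tags in excess of input.
Dtl/Ints7: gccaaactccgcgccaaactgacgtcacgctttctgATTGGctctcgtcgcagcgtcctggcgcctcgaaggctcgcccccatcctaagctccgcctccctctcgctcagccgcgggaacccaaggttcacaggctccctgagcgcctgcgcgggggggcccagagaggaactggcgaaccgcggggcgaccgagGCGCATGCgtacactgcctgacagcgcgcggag

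Plcz1, the phospholipase of sperm that activates the egg, and Capza3, a capping protein of sperm, flank the 67 bp at chr6:139989979-139990045. These bases have no match to the motifs. The pair was lowest in log2 H3K9ac over input among those with at least 5 input tags.
Plcz1/Capza3: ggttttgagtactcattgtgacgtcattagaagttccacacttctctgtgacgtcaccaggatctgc

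Tmem176b and Tmem176a, membrane proteins of immune cells, flank the 108 bp at chr6:48791374-48791481, which hold no CpG at all and had more 13HH3 than H3K9ac tags.
Tmem176b/Tmem176a: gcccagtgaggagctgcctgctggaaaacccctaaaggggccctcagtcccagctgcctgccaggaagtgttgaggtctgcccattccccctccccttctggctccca

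Ndufa8, a subunit of respiratory complex I, and Morn5 flank the 51 bp at chr2:35904927-35904977. H3K9ac had 113 tags on the side of Ndufa8 and 14 on that of Morn5, beside 13 and 5 of input.
Ndufa8/Morn5: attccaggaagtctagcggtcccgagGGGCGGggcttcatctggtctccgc

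The first comparison asked how much acetylation divergent pairs carry beside TSSs that stand alone. H3K9ac was high at nearly all pairs, and both H3K14ac antibodies gave lower ratios that were above input on average. The median pair had 69.5 H3K9ac tags per 10000000 tags within 1 kb on both sides of the midpoint, 17.6 tags of 13HH3, 20.6 of 7G8 and 9.84 of input. The median lone TSS had 28.0 tags of H3K9ac, 14.3 of 13HH3, 13.4 of 7G8 and the same 9.84 of input. The levels of pairs and lone TSSs thus differed in the 3 ChIP libraries at equal median input.

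On the log2 scale over input, with 1 tag per 10000000 tags added to both, the median pair was at 2.73 in H3K9ac (interval 2.67 to 2.81), at 0.81 in 13HH3 (0.75 to 0.88) and at 1.00 in 7G8 (0.94 to 1.05). The same medians of lone TSSs were 1.19, 0.40 and 0.35. Pairs exceeded lone TSSs by a median log2 difference of 1.55 (1.48 to 1.63) in H3K9ac, 0.41 (0.35 to 0.48) in 13HH3 and 0.65 (0.59 to 0.70) in 7G8. The window of a pair holds the gene side of both TSSs, whereas that of a lone TSS holds 1 gene side and 1 upstream side, which is taken up again below.

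In H3K9ac, 754 pairs (95.6%) were at 2-fold or more over input, where 60.7% of all 21418 protein-coding TSSs and 53.6% of lone TSSs were. In 13HH3 the count was 298 pairs (37.8%), against 23.6% of all TSSs and 20.9% of lone TSSs. In 7G8 it was 391 pairs (49.6%), against 22.5% of all TSSs and 18.1% of lone TSSs. Of the pairs, 250 passed 2-fold in the 3 ChIP libraries, 317 in H3K9ac without H3K14ac, 139 in H3K9ac and 7G8, and 48 in H3K9ac and 13HH3. There were 33 pairs that passed in none, and 2 that passed in 7G8 without H3K9ac. With 95.6% of pairs past 2-fold in H3K9ac, the overlap of either H3K14ac library with H3K9ac is close to fixed by that share. The overlap of the H3K14ac libraries with each other is not, and the input is shared by all ratios. No joint counts over all TSSs or lone TSSs are given, so those of pairs are a description and cannot be called unusual.

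**Figure D1:**
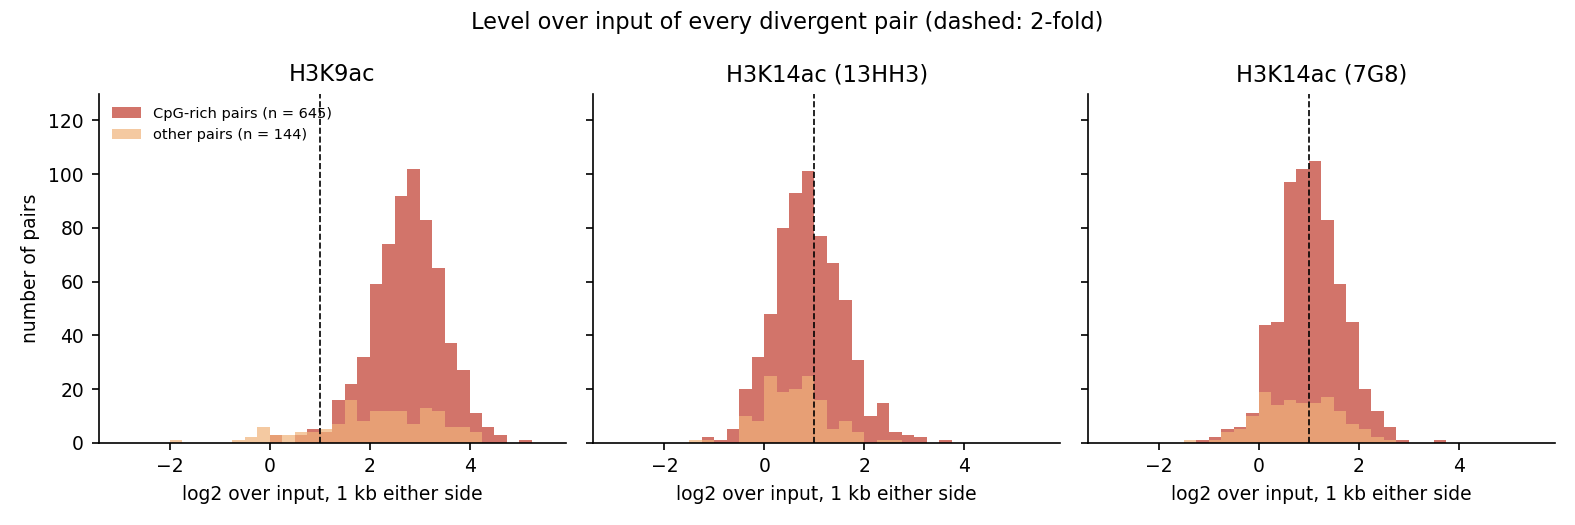
Number of divergent pairs (vertical axis) by log2 ratio over input within 1 kb of the midpoint (horizontal axis) in each ChIP library, with CpG-rich pairs in red, other pairs in orange and a dashed line at 2-fold. H3K9ac of CpG-rich pairs lies almost wholly to the right of the line (634 of 645), whereas 13HH3 and 7G8 straddle it and the pairs below input in H3K9ac (10 in all) are other pairs.

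There were 5 pairs with 0 tags in the 4 libraries, input included, and 11 pairs with fewer than 5 input tags. Among the former were Hist1h2bq/Hist1h2ao and Hist1h2ap/Hist1h2br on chromosome 13, neighbouring histone pairs of equal spacing (168 bp). Whether reads from near-identical copies of these genes could be placed was not tested. The pairs without tags enter the medians at log2 0.00.

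The second comparison took sequence into account, since CpG content differs between the sets. A site was called CpG-rich where the 300 bp around it had a GC content of at least 50% and an observed-to-expected CpG ratio of at least 0.6. By this rule 645 pairs (81.7%) and 6600 lone TSSs (43.1%) were CpG-rich. Among CpG-rich sites the pairs were still higher in H3K9ac, with medians of 2.80 against 2.21 and a difference of 0.59 (0.51 to 0.66). The difference in 7G8 was 0.35 (0.30 to 0.41) and that in 13HH3 was 0.11 (0.05 to 0.17), with medians in 13HH3 of 0.85 and 0.75. In the share at 2-fold or more in 13HH3, CpG-rich pairs (40.8%) and CpG-rich lone TSSs (35.2%) differed by 5.58 percentage points (1.58 to 9.65), and in 7G8, with 51.5% and 30.5%, by 21.0 (16.9 to 25.1).

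The other 144 pairs, not CpG-rich at the midpoint, were far above lone TSSs of the same kind. Their median log2 H3K9ac was 2.26 against 0.07 at 8696 lone TSSs, a difference of 2.19 (1.88 to 2.44), and 83.3% against 25.0% passed 2-fold. Of these pairs, 82 were CpG-rich in the 300 bp around 1 or both of their TSSs, with a median spacing of 446 bp, and had a median of 2.62. The 62 pairs that were CpG-rich at neither TSS had a median of 1.46 in H3K9ac, 0.58 in 13HH3 and 0.35 in 7G8, and 39 of them were at 2-fold or more in H3K9ac.

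Across the pairs, the number of CpG in the 300 bp had a Spearman correlation of 0.12 with log2 H3K9ac over input, 0.19 with 13HH3 and 0.02 with 7G8. Across lone TSSs the same values were 0.73, 0.48 and 0.36, but across CpG-rich lone TSSs alone they were 0.05, 0.15 and -0.07. These values describe sites of single libraries that share the input (n = 789, 15296 and 6600). Across the 645 CpG-rich pairs the values were -0.03, 0.13 and -0.11.

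The marks were then compared with each other at the same pairs. Log2 H3K9ac over input had a Spearman correlation across the 789 pairs of 0.76 with 13HH3 and 0.88 with 7G8, and the H3K14ac antibodies had 0.73 with each other, with the input shared by all ratios. Without input, on tags per 10000000 tags, the same correlations were 0.60, 0.79 and 0.56. At the median pair 13HH3 was 1.89 below H3K9ac on the log2 scale of tags per 10000000 tags, whereas it was 0.73 below at lone TSSs and 1.45 below at CpG-rich lone TSSs. For 7G8 the distances were 1.69 at pairs, 0.94 at lone TSSs and 1.53 at CpG-rich lone TSSs. Among CpG-rich sites pairs differed from lone TSSs in this ratio of tags by -0.46 (-0.50 to -0.41) in 13HH3 and -0.21 (-0.24 to -0.16) in 7G8. The ratio counts tags at the level of input too, and so falls where H3K9ac alone is higher. With the median of input subtracted from the medians of both marks, a step added after seeing the data, 13HH3 was 0.133 of H3K9ac at CpG-rich pairs and 0.197 at CpG-rich lone TSSs, but 7G8 was 0.174 and 0.166, so that the lower ratio of pairs was lost in 7G8.

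The level of 13HH3 was above that of H3K9ac at 12 pairs (1.52%), at 21.5% of all protein-coding TSSs and at 1.83% of CpG-rich lone TSSs. For 7G8 it was 7 pairs (0.887%), against 20.3% of all TSSs and 0.636% of CpG-rich lone TSSs. The low shares were thus not particular to pairs. None of these pairs was CpG-rich. The 5 pairs highest in 13HH3 over H3K9ac, among those with at least 20 tags of 13HH3, were Tmem176b/Tmem176a, 4931428L18Rik/4930521A18Rik, Best1/Rab3il1, Il11/Tmem190 and 2010002M12Rik/Ifit1. Tmem176b/Tmem176a had 25 tags of H3K9ac, 54 of 13HH3, 24 of 7G8 and 29 of input. Its log2 13HH3 over input was 0.70 (0.06 to 1.44), whereas 7G8, against the same residue, was at -0.53 (-1.42 to 0.25). All 5 were chosen by their 13HH3 over H3K9ac, so these values and intervals are a description. Il11/Tmem190, which holds the gene of interleukin 11, had 39, 51, 31 and 26 tags in the same order. Ifit1, an interferon-induced gene, shares its promoter with 2010002M12Rik and had 41, 46, 56 and 21 tags. At the Ifit1 pair 13HH3 (log2 0.91) and 7G8 (1.04) were both above input, whereas 7G8 was at -0.05 at Il11/Tmem190.

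The profile around the midpoint was examined next in bins of 100 bp. The density of H3K9ac tags formed 2 maxima, of 4.81 tags per 100 bp, pair and 10000000 tags at -250 bp and of 4.58 at 250 bp, with a minimum of 2.19 between them, which is 0.466 of their mean. The density of 13HH3 had maxima of 1.32 and 1.25 and a minimum of 0.520, and that of 7G8 had 1.27, 1.21 and 0.639. Input had the same form, with maxima of 0.620 and 0.618 and a minimum of 0.313. The dip at the midpoint was therefore present without antibody as well, at 0.506 of the maxima.

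**Figure D2:**
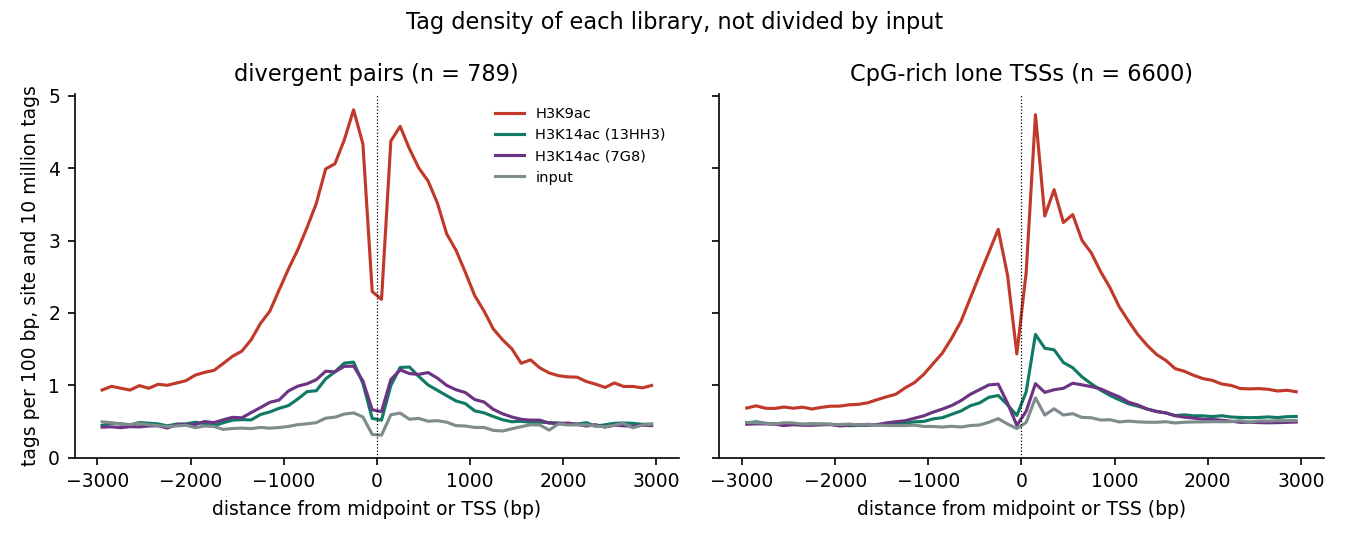
Mean tag density (vertical axis, tags per 100 bp, site and 10000000 tags) against the distance from the midpoint of 789 divergent pairs (left) or from 6600 CpG-rich lone TSSs turned to read rightwards (right), for each of 4 libraries. At pairs both shoulders of H3K9ac are of like height (4.81 and 4.58), which follows from how pairs are drawn. At lone TSSs the downstream one is higher (4.74 against 3.16), and input dips at the centre and is higher downstream (0.828 against 0.541) as well.

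Divided by input, H3K9ac stayed between 6.99 and 8.01 from 250 bp on the minus side to 350 bp on the plus side, so that the minimum was 0.887 of the mean of the maxima. It was 7.75 at -250 bp and 8.01 at 350 bp. For 13HH3 the maxima over input were 2.16 and 2.35 with a minimum of 1.66, and for 7G8 they were 2.22 and 2.33 with a minimum of 1.82. This flat course is that of all pairs pooled. The 292 pairs with spacings up to 100 bp had a minimum over input of 5.90, which is 0.679 (0.568 to 0.811) of the mean of their maxima. That of the 219 pairs of over 100 to 200 bp was 4.22, which is 0.493 (0.399 to 0.609). Minimum and maxima are the extreme bins of each profile, so the minimum is lower in any uneven profile. The intervals do not cover this choice. In CpG-rich lone TSSs H3K9ac fell to 3.55 just upstream of the TSS between maxima of 5.83 and 5.72, a minimum of 0.615 of their mean. From 2 to 3 kb away, H3K9ac over input was 2.15 and 2.28 on both sides of pairs, whereas it was 1.46 upstream and 1.91 downstream of CpG-rich lone TSSs. In the same range 13HH3 over input was 1.01 and 1.04 at pairs, and 7G8 was 0.943 and 0.999.

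**Figure D3:**
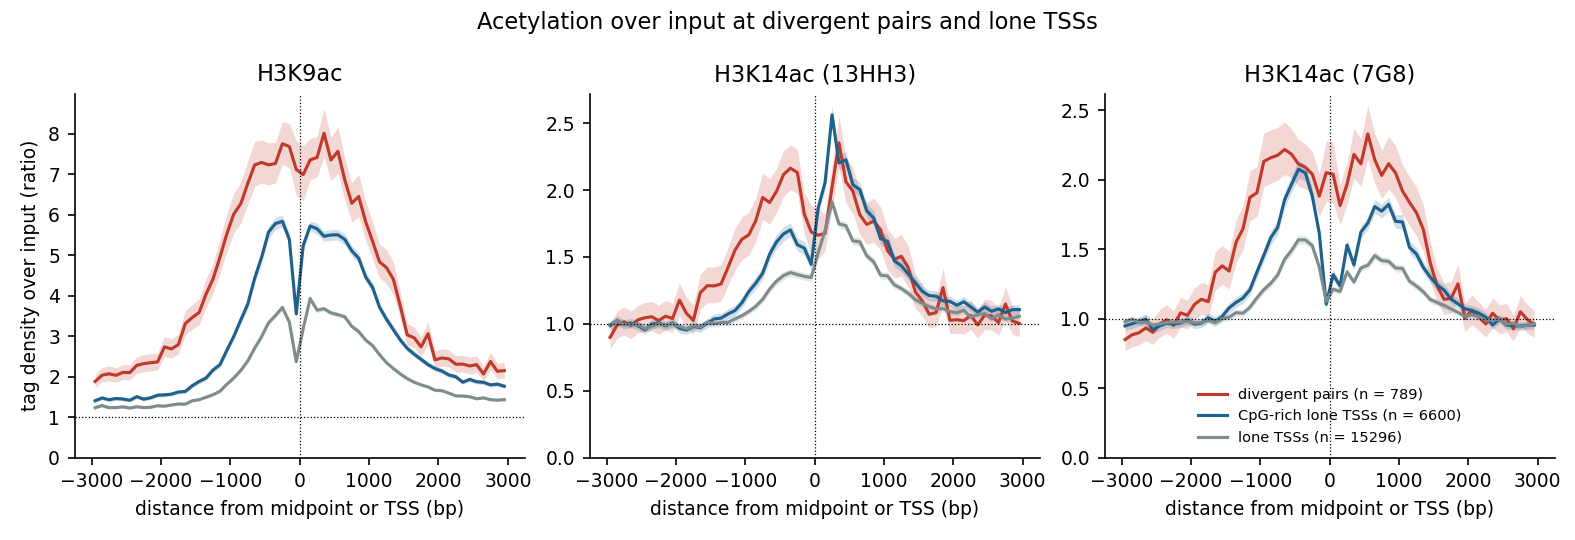
Ratio of mean tag density to input (vertical axis) against the distance from the midpoint or TSS (horizontal axis, bp) for divergent pairs, CpG-rich lone TSSs and lone TSSs, in each ChIP library, with bands for the exact 95% interval of the tag ratio. H3K9ac of all pairs pooled runs between 6.99 and 8.01 from -250 to 350 bp. In classes of spacing not drawn here, the minimum between the maxima was 5.90 at up to 100 bp and 4.22 at over 100 to 200 bp. In 13HH3 pairs have like maxima on both sides (2.16 and 2.35), whereas at CpG-rich lone TSSs the downstream one (2.56) is higher.

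Which gene of a pair is drawn on the right follows from the strand of the chromosome, so that the like height of both sides in the mean profile follows from the choice of pairs. What can be compared is the level of the gene side. In the highest bins over input at CpG-rich lone TSSs, 13HH3 was higher downstream (2.56) than upstream (1.70), 7G8 was higher upstream (2.08) than downstream (1.82), and H3K9ac was at 5.83 upstream and 5.72 downstream. Without division by input the 7G8 density was 1.02 upstream and 1.03 downstream, so that its order over input rests on the division. In the 1 kb outward from each TSS of a pair, which is the gene side, the median log2 over input was 2.60 (2.54 to 2.64) in H3K9ac, 0.71 (0.65 to 0.77) in 13HH3 and 0.91 (0.87 to 0.96) in 7G8 over 1578 sides. In the 1 kb downstream of CpG-rich lone TSSs the medians were 2.23 (2.21 to 2.25), 0.86 and 0.56, and in the 1 kb upstream 1.87 (1.84 to 1.91), 0.41 and 0.66, so that over 1 kb H3K9ac was higher downstream. The 1290 sides of CpG-rich pairs were at 2.66, 0.78 (0.70 to 0.85) and 0.97.

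The H3K14ac antibodies had opposite signs in this comparison. All pairs were below CpG-rich lone TSSs in 13HH3, by -0.15 (-0.22 to -0.09), and above them in 7G8, by 0.36 (0.31 to 0.41), and H3K9ac differed by 0.36 (0.30 to 0.41) on the gene side. With CpG-rich pairs alone, chosen after seeing the data, the difference in 13HH3 was smaller, at -0.08 (-0.16 to -0.01), with an interval that ends near 0. Those in 7G8 and H3K9ac were 0.41 and 0.43. Intervals over sides count both sides of a pair as separate sites. The sides correlate (Spearman 0.398 in H3K9ac and 0.120 in 13HH3), so these intervals can be too narrow. Against all lone TSSs, with downstream medians of 1.25, 0.48 and 0.28, the gene sides of pairs were higher in the 3 libraries. Since each antibody has 1 library, a difference between the antibodies cannot be told apart from a difference between their libraries.

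The distance between the maxima of H3K9ac density was larger at wider spacing of the paired TSSs. In 292 pairs of at most 100 bp the density of H3K9ac had its maxima 300 bp apart. They were 500 bp apart both in 219 pairs of over 100 to 200 bp and in 111 pairs of over 200 to 300 bp. In 86 pairs of over 300 to 500 bp they were 700 bp apart, and in 81 pairs of over 500 bp they were 1200 bp apart. Input without antibody had the same order, with maxima 300, 500, 500, 700 and 1100 bp apart. A maximum could lie at most 1 kb from the midpoint. Divided by input, the profiles were flatter and gave no such order, with distances of 500, 700, 100, 100 and 400 bp in the same classes.

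In density, not divided by input, closely spaced pairs had 1 gap, and widely spaced pairs had 2 gaps with a higher density between them. At spacings up to 100 bp H3K9ac was 1.85 and 1.81 tags per 100 bp, pair and 10000000 tags in the central bins, between maxima of 6.40 and 5.99. At spacings of over 300 to 500 bp the density dipped to 1.62 at -150 bp and 2.18 at 150 bp, near the median TSS positions 190 bp from the midpoint, and was 4.39 between them, close to the outer maxima of 5.42 and 5.08. At spacings over 500 bp it dipped to 2.17 and 2.32 at 250 bp on either side and was 3.74 between them. The 13HH3 density was 0.753 between the TSSs at over 300 to 500 bp, with dips of 0.409 and 0.436. That of 7G8 was 1.11, with dips of 0.541 and 0.576. Input in the same pairs dipped in the same bins, to 0.199 at -150 bp and 0.313 at 150 bp. It was at most 0.385 between the TSSs and 0.843 and 0.722 at its outer maxima. Divided by input, H3K9ac of these pairs was highest at -50 bp (12.2) and 50 bp (10.1). The 2 gaps are therefore a description of density alone.

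**Figure D4:**
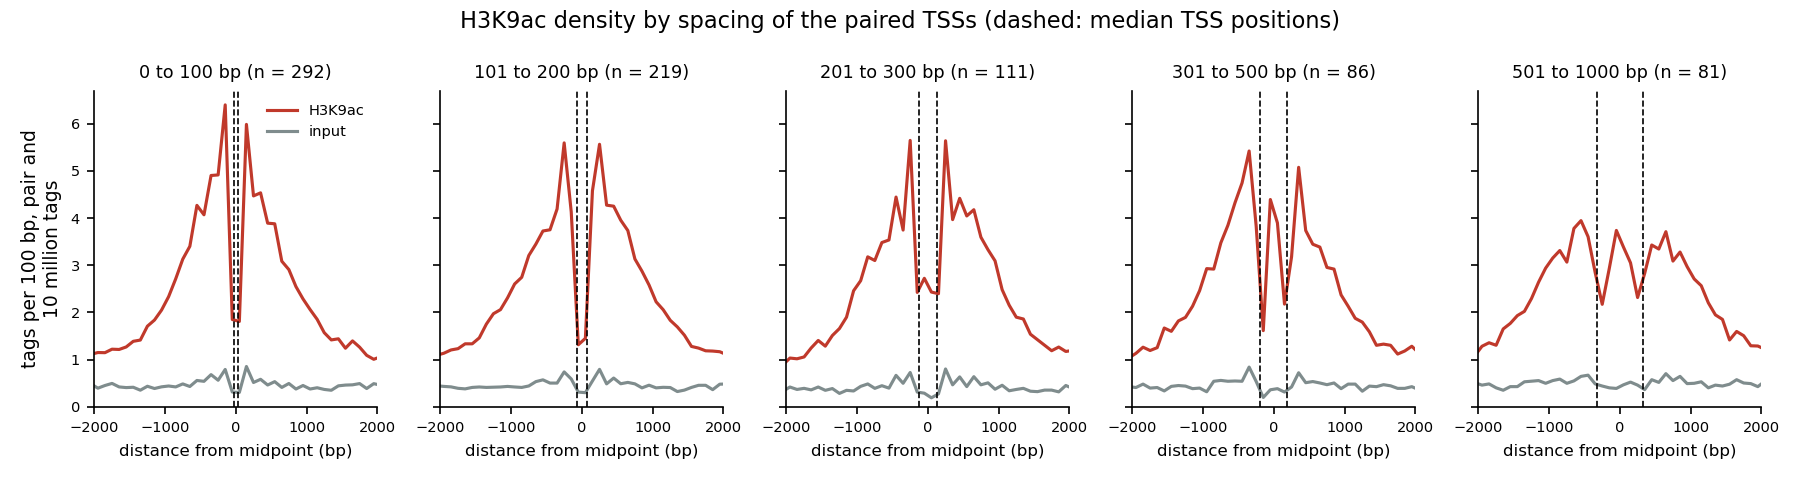
H3K9ac and input density (vertical axis, tags per 100 bp, pair and 10000000 tags) against the distance from the midpoint (horizontal axis, bp) in 5 classes of TSS spacing, with dashed lines at the median TSS positions of each class. A single gap in density at spacings up to 200 bp becomes a gap at each TSS. The central maximum is 4.39 at over 300 to 500 bp and 3.74 at over 500 bp. Input dips too, to 0.199 and 0.313 at over 300 to 500 bp, and its maxima lie farther apart in the same order.

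The level within 1 kb changed little with spacing. The median log2 H3K9ac over input was 2.74, 2.74, 2.80 and 2.75 in the 4 classes up to 500 bp and 2.43 (2.21 to 2.63) above 500 bp. Across the pairs the Spearman correlation of spacing with the log2 ratio was -0.06 in H3K9ac, -0.05 in 13HH3 and -0.06 in 7G8. The pairs just inside the limit of 1000 bp, Btf3l4/Txndc12 and Pdzd7/Sfxn3 at 987 bp, were at log2 H3K9ac of 3.07 and 1.73. The pairs just outside, Nacc1/Trmt1 at 1004 bp and Atg14/Gm6616 at 1008 bp, were at 2.79 and 4.23, the latter over 5 input tags.

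Both sides of each pair were then compared, to see how often acetylation leaned to 1 gene. The 2 sides differed 2-fold or more in H3K9ac tags at 154 pairs (19.5%, interval 16.8 to 22.5), where upstream and downstream differed at 36% of all protein-coding TSSs and at 37.9% of lone TSSs. In 13HH3 the sides differed at 246 pairs (31.2%), against 41% of all TSSs, and in 7G8 at 186 pairs (23.6%), against 29.4%. By another criterion, that the exact interval of the ratio of both sides excludes 1, the order turned in H3K9ac, with 53.6% of pairs, 45% of all TSSs and 42.5% of lone TSSs, and in 7G8, with 28.9%, 24.3% and 23.5%. In 13HH3 it was 31.4%, 33.7% and 33.4%. This criterion finds smaller differences where there are more tags, and all TSSs had fewer, with medians of 24 and 52 H3K9ac tags on the lower and higher side. At sites with at least 50 tags the sides differed 2-fold in H3K9ac at 19.6% of pairs, 37.8% of all TSSs and 41.6% of lone TSSs. The same shares of pairs and of all TSSs were 34.3% and 42.7% in 13HH3, and 20.2% and 24.0% in 7G8. The median pair had 65 H3K9ac tags on its lower and 96 on its higher side. Counts of 13HH3 (medians of 14 and 24) and of 7G8 (19 and 30) were lower, so more of their differences can come from counting.

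The leaning of a pair in H3K9ac was then set beside that in the other libraries. Among 70 pairs with more H3K9ac on the plus side, 68 had more 7G8 and 62 had more 13HH3 on that side. Among 84 pairs with more H3K9ac on the minus side, 80 had more 7G8 and 80 had more 13HH3 on that side. In none of the 154 pairs did an H3K14ac library differ 2-fold the other way. The same counts were not made over all TSSs or lone TSSs. Those of pairs are thus a description and cannot be called particular to pairs. Input leaned the same way at 51 of 70 and 54 of 84 pairs, by a median log2 of 0.52 in both sets, while H3K9ac differed by 1.37 and 1.39. Across all pairs the log2 ratio of plus to minus side had a Spearman correlation of 0.66 between H3K9ac and 13HH3, 0.68 between H3K9ac and 7G8, 0.48 between 13HH3 and 7G8, and 0.25 between H3K9ac and input. The part of the input in the leaning was not tested further.

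**Figure D5:**
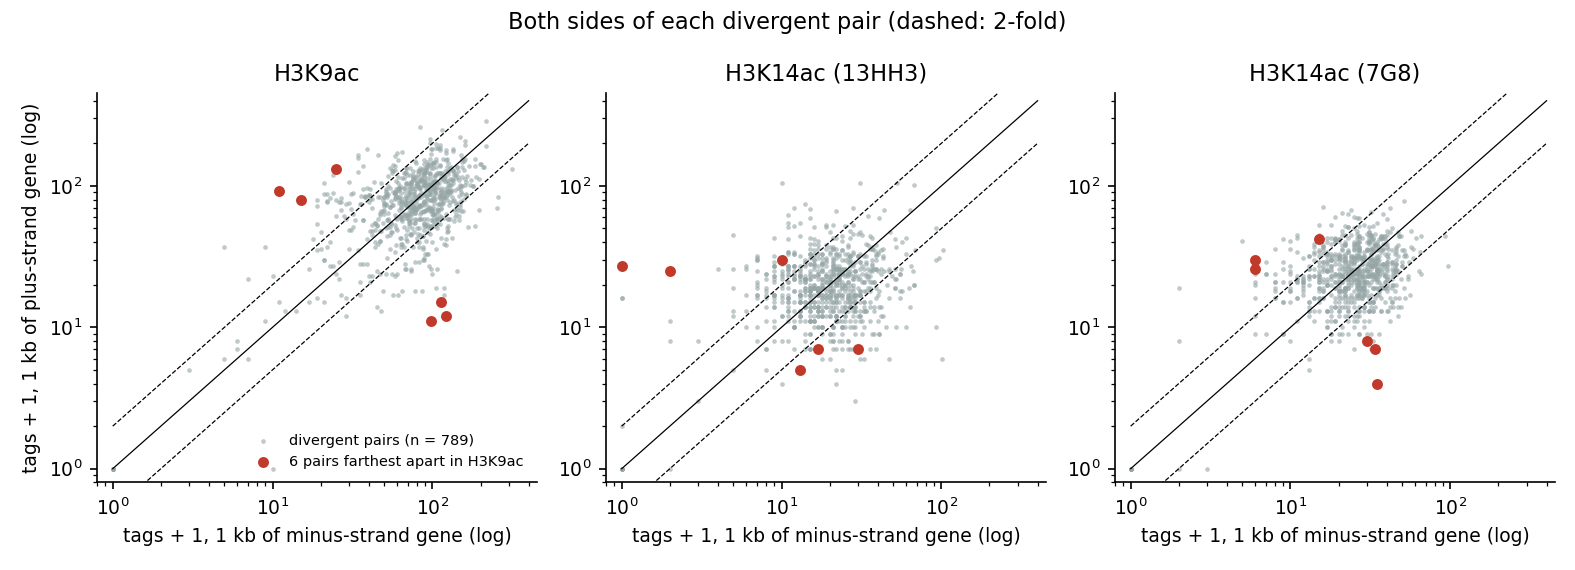
Tags + 1 in the 1 kb of the minus-strand gene (horizontal axis, log) and of the plus-strand gene (vertical axis, log) of 789 divergent pairs in each ChIP library, with lines at equality and at 2-fold and the 6 pairs farthest apart in H3K9ac in red. These 6 pairs were chosen in H3K9ac and lie on the same sides of equality in 13HH3 and 7G8.

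The 3 pairs that leaned most to the minus side were Csnk2b/Gpank1, Tmtc3/Cep290 and Ndufa8/Morn5. At Ndufa8/Morn5 on chromosome 2, whose 51 bp are shown above, H3K9ac had 113 tags over 1 kb of Ndufa8 and 14 over 1 kb of Morn5. There 13HH3 had 29 and 6, 7G8 had 34 and 3, and input had 13 and 5. Csnk2b, the regulatory subunit of casein kinase 2, had 120 H3K9ac tags on its side and Gpank1 had 11, at a spacing of 899 bp. Input at that pair leaned too, at 19 and 9. Tmtc3 had 97 tags and Cep290, a centrosomal protein of the base of cilia, had 10, at 939 bp, with input at 11 and 9. In both wide pairs the lower side had nearly as few tags of H3K9ac as of input.

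The 3 pairs that leaned most to the plus side were Ccdc146/Fam185a, Wdr65/Ebna1bp2 and Casc1/Lyrm5. Wdr65/Ebna1bp2, with 22 bp between the TSSs, had 14 H3K9ac tags over Wdr65 and 79 over Ebna1bp2, a nucleolar protein of ribosome assembly. It had 1 and 24 tags of 13HH3, 5 and 29 of 7G8, and 4 and 8 of input. Casc1/Lyrm5 had 24 and 130 tags of H3K9ac, 9 and 29 of 13HH3, 14 and 41 of 7G8, and 10 and 13 of input. At Ccdc146/Fam185a input leaned too, with 5 tags over Ccdc146 and 20 over Fam185a, beside 10 and 91 of H3K9ac. At the pair of 22 bp, chosen for its leaning, the sides differed several-fold in H3K9ac tags. It is a single pair and does not describe narrow promoters as a class.

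Between the sides of pairs the Spearman correlation of H3K9ac tags was 0.398, that of 13HH3 0.120 and that of 7G8 0.200, over 789 pairs. Upstream and downstream of lone TSSs it was 0.795, 0.505 and 0.464. The range of levels differed, as 1 in 10 pairs had fewer than 38.0 H3K9ac tags per 10000000 tags and 1 in 10 lone TSSs had fewer than 3.45, and its part in the correlations was not tested.

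Some pairs are textbook examples. Of 11 such pairs, 5 met the rule. Mcm4, of the replicative helicase, and Prkdc, the catalytic subunit of DNA-dependent protein kinase, lie 466 bp apart at chr16:15637493-15637959. They had 346 tags of H3K9ac, 66 of 13HH3, 82 of 7G8 and 18 of input, or log2 3.86 (3.32 to 4.77), 1.61 and 1.78 over input. Brca1/Nbr1 had 279, 43, 79 and 20 tags, and H3K9ac leaned to Nbr1, with 184 tags against 105. Atm, the kinase that senses double-strand breaks, and Npat, a coactivator of histone genes, lie 307 bp apart on chromosome 9. They had 194, 39, 66 and 26 tags, with 104 and 107 H3K9ac tags on both sides, a balanced pair. Mrps12/Sars2 had 180, 23, 63 and 18 tags, balanced at 87 and 88, and its log2 in 13HH3 was 0.17 (-0.76 to 1.17) beside 1.41 (0.73 to 2.35) in 7G8. Col4a4/Col4a3, collagens of basement membranes with 71 bp between their TSSs at chr1:82583425-82583495, was the lowest of them, with 103, 53, 43 and 28 tags and log2 H3K9ac of 1.55 (1.00 to 2.27). Among the others, the TSSs of Hspd1/Hspe1, Ppat/Paics, Col4a1/Col4a2 and Surf1/Surf2 pass each other by 21 to 271 bp in the annotation, and those of Tk1/Afmid by far more, so these pairs are no members.

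The pairs with the highest levels over input were compared next. Zwilch/Rpl4 had 511 tags of H3K9ac, 150 of 13HH3, 135 of 7G8 and 22 of input. By this excess it was among the 5 highest pairs of each ChIP library, as was Dido1/2310003C23Rik with 436, 134, 115 and 16 tags. The order by log2 ratio is another, with Trappc4/Rps25 at 4.73 in H3K9ac beside 4.16 at Zwilch/Rpl4. Cbx5, heterochromatin protein 1 alpha, and Hnrnpa1, a splicing factor, had 407 tags of H3K9ac, 107 of 7G8 and 16 of input at a spacing of 698 bp, with log2 13HH3 over input at 2.36, and were among the highest in H3K9ac and 7G8. Mrps18b/Ppp1r10 and Dtl/Ints7 followed in H3K9ac with 369 and 377 tags. The pairs high in 13HH3 were others in part. Each list was chosen by the tags of its own library, so lower values in another library are a description. Among the pairs high in 13HH3, Actg1/0610009L18Rik stood out. At this pair, which holds the gene of gamma-actin, 13HH3 had 161 tags, H3K9ac 197, 7G8 39 and input 14, so that log2 over input was 3.38 in H3K9ac, 3.19 (2.57 to 4.26) in 13HH3 and 1.07 (0.26 to 2.17) in 7G8. Med22/Rpl7a had 126 tags of 13HH3, of which 104 lay in the 1 kb of Rpl7a and 30 in that of Med22, where the sides, counted outward from each TSS, reach past the window. In 5031425E22Rik/Mll5 13HH3 had 166 tags. Mastl/Yme1l1 and Vipar/Ahsa1 were high in 7G8 instead, with 110 and 113 tags of 7G8 and 61 and 62 of 13HH3.

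The 5 pairs lowest in H3K9ac were taken among those with at least 5 input tags. Plcz1/Capza3, both genes of sperm, had 11 tags of H3K9ac, 16 of 13HH3, 17 of 7G8 and 37 of input, or log2 -1.81 (-3.13 to -1.01) in H3K9ac. 4931428L18Rik/4930521A18Rik had 9, 20, 19 and 13 tags. Zfp558/Mbd3l1, of which Mbd3l1 is a protein of the testis, had 12, 12, 13 and 14. Smyd1, a methyltransferase of muscle, and Cd8b1, a chain of the T cell coreceptor CD8, had 33, 36, 40 and 31. Together with Tmem176b/Tmem176a, none of these 5 pairs was CpG-rich at its midpoint. The intervals of the last 4 in H3K9ac include log2 0.00. All 5 were chosen by this value, so the intervals are a description.

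Groups of genes were taken by symbol, and a pair was counted in a group if either of its genes was a member. Among 76 core histone genes 27 were in pairs, the largest share of the 10 groups. They formed 14 pairs, 13 of them with both genes from the group, mostly an H2A and an H2B gene of the cluster on chromosome 13, with a median spacing of 228.5 bp. Of the 14, 12 were at 2-fold or more in H3K9ac, 6 in 13HH3 and 11 in 7G8, with medians of 3.42, 0.83 and 1.71, and the remaining 2 in H3K9ac are those with no tags. Hist1h2ag/Hist1h2bj had 208 tags of H3K9ac, 32 of 13HH3, 79 of 7G8 and 8 of input, or log2 4.14, 1.62 and 2.73. Hist1h2ah/Hist1h2bk had 250, 38, 66 and 10 tags. Hist1h2ba/Hist1h2aa, the pair of testis-specific variants, had 48, 33, 27 and 18 tags, at log2 1.07, 0.66 and 0.26, the lowest of the pairs with tags in H3K9ac and 7G8, while Hist1h2bh/Hist1h3f was the lowest in 13HH3 at 0.20.

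The median 13HH3 over input of the histone pairs was close to that of all pairs (0.81), and their median 13HH3 over H3K9ac was -2.36 beside -1.89 in all pairs. The histone pairs with no tags enter these medians at log2 0.00. Over all 76 core histone genes, in pairs or not, the medians were 3.35 in H3K9ac, 1.12 in 13HH3 and 1.59 in 7G8. Ribosomal proteins of the cytosol had 9 pairs, of which 9 were at 2-fold or more in H3K9ac, 8 in 13HH3 and 8 in 7G8, with medians of 3.74, 2.41 and 1.96 and a median 13HH3 over H3K9ac of -1.60. Rpl9/Lias had 215 tags of H3K9ac, 98 of 13HH3, 74 of 7G8 and 9 of input, and Trappc4/Rps25 had 251, 54, 57 and 6. Rnf151/Rps2, with 92, 37, 24 and 22 tags, was the lowest of them at log2 1.72. The medians of all 80 genes of this group, in pairs or not, were 3.44, 2.26 and 1.56, so its level was not particular to pairs.

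Mitochondrial ribosomal proteins had 16 pairs, all at 2-fold or more in H3K9ac, 9 in 13HH3 and 10 in 7G8, with medians of 3.19, 1.01 and 1.45. Eme2/Mrps34, with 198, 39, 57 and 43 tags, was the lowest at log2 1.89. Subunits and assembly factors of the respiratory chain had 22 pairs, of which 22, 10 and 13 passed, with medians of 2.93, 0.83 and 1.05. Fam126b/Ndufb3 had 205, 29, 58 and 7 tags, and Ndufs1/Eef1b2, with 3 bp of spacing, had 271, 65, 54 and 16. Genes of DNA repair and replication had 38 pairs, of which 38, 18 and 24 passed, with medians of 2.91, 0.95 and 1.21. Rad51c, a recombination protein, and Tex14 had 223, 70, 54 and 10 tags, the highest of that group at log2 3.98. Rad17/Taf9 is listed with 2 entries of Taf9 and counts as 2 of these pairs. Chaperones had 18 pairs, of which 18, 10 and 10 passed, with Hspa14/Cdnf listed for 2 entries of Hspa14. Counted once, these groups had 37 and 17 pairs. Over all genes of DNA repair and replication, in pairs or not, the medians were 2.93, 1.07 and 1.18, so their level was not particular to pairs. The same medians in H3K9ac were 2.72 for mitochondrial ribosomal proteins, 2.68 for the respiratory chain and 2.50 for chaperones. The heat shock gene pair Hspa1a/Hspa1l had 46, 10, 24 and 6 tags, where Hspa1a has a near-identical copy and the placement of its reads was not tested, and Hspb2/Cryab, small heat shock proteins of muscle and lens, had 104, 86, 51 and 37 with log2 1.19, 1.02 and 0.15.

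Zinc finger genes of the Zfp series, the largest group of transcription factors here with 362 genes, had 17 pairs (16 with each pair of symbols counted once), of which 16, 9 and 9 passed. Homeobox genes had 1 pair, Gm17649/Hoxc13 with 109, 45, 33 and 28 tags, collagens had 1 pair among 41, and olfactory and vomeronasal receptors had 0 pairs among 1403 genes. These shares stand against 95.6%, 37.8% and 49.6% over all pairs at 2-fold, and groups of fewer than 20 pairs bear little on a difference from them.

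The last comparison was of the sequence itself, in the 300 bp around the midpoint of pairs and around lone TSSs. The median GC content was 62.3% (61.7 to 63.3) in pairs and 57.0% in lone TSSs, and the median CpG ratio was 0.851 (0.833 to 0.865) and 0.508. A match to the ETS motif was found in 110 pairs (13.9%), in 3.87% of lone TSSs and in 4.85% of all protein-coding TSSs. For the NRF1 motif the shares were 6.72% of pairs, 2.71% of lone TSSs and 3.15% of all. For YY1 they were 5.20%, 1.82% and 2.30%. CCAAT was in 336 pairs (42.6%), 35.3% of lone TSSs and 35.4% of all TSSs. In windows of 500 bp the difference from lone TSSs was 2.46 percentage points (-1.18 to 6.09), with an interval that includes 0. The GC box was in 527 pairs (66.8%), 42.5% and 46.1%. TATAAA was rarer in pairs, with 38 pairs (4.82%), 12.1% of lone TSSs and 10.8% of all TSSs.

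Among CpG-rich sites the ETS motif was in 16.3% (13.5 to 19.4) of pairs and 7.77% (7.14 to 8.45) of lone TSSs, and CCAAT in 41.6% and 31.7%. NRF1 was in 7.75% and 5.52% and YY1 in 5.74% and 3.67%, differences nearer to their intervals. The GC box was at 73.8% in pairs and 77.8% in lone TSSs, so its order turned, and TATAAA was at 2.33% and 3.48%, a difference of -1.16 percentage points (-2.28 to 0.38) with an interval that includes 0. A match to these letters is a description and not a bound site. The windows of pairs hold both TSSs only where the spacing is small, and motifs downstream of a TSS at wider spacing lie outside them. A window with both TSSs holds promoter DNA of both genes, whereas that of a lone TSS holds promoter DNA of a single gene. The spacing was at most 300 bp in 622 pairs, and the part of this in the shares was not tested.

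The level of acetylation was then set beside the presence of each motif among pairs, with no test. Pairs with the ETS motif had a median log2 H3K9ac of 2.73, as had those without it, also 2.73. With and without CCAAT the medians were 2.76 and 2.72, and with and without the GC box 2.72 and 2.75. In 13HH3 these medians were 0.81 and 0.81 for ETS, 0.78 and 0.85 for CCAAT, and 0.81 and 0.85 for the GC box. In 7G8 they were 1.08 and 0.99, 1.00 and 1.00, and 0.98 and 1.04. The 53 pairs with the NRF1 motif, Dtl/Ints7 shown above among them, were at 2.95 against 2.71 in H3K9ac, 0.92 against 0.81 in 13HH3 and 1.16 against 0.99 in 7G8. The 41 pairs with the YY1 motif were at 2.89 against 2.73, 0.98 against 0.81 and 1.07 against 1.00. The 38 pairs with TATAAA were at 2.83 against 2.73 in H3K9ac, 0.81 against 0.81 in 13HH3 and 1.28 against 0.99 in 7G8.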

How the data were processed

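The 4 libraries were chromatin immunoprecipitation or input DNA of untreated mES cells, sequenced as single reads. Per the methods, the authors aligned the reads to mm9 with ELAND, allowing 1 mismatch, and deposited 1 BED line per tag of 36 bases. The score column deposited by the authors holds the value 1 throughout and carries no measurement. Repeats of position and strand occurred in the 13HH3 file (738711 tags, 3.3%) and were counted once. Totals were 19313927 to 23839094 tags per library, and all columns with measurements were accounted for (0 left over).

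Tags were moved 100 bp downstream from their 5′ end, counted within 1 kb and in 100 bp bins over 3 kb, and scaled to 10000000 tags per library. The log2 ratio over input used a pseudocount of 1. A site was called at 2-fold or more. Intervals (95%) were exact binomial for shares and tag ratios and distribution-free for medians. Those of ratios between bins of a profile used a normal approximation on the log scale. Those of differences were combined from the intervals of both parts. Intervals of single pairs belong to the tag ratio without the pseudocount, whereas the log2 value beside them includes it. No test between conditions was made, since each group has 1 library. GENCODE vM1 and NCBIM37 sequence gave TSSs, motifs and GC content. Counting used numpy 2.4.6 and pandas 2.3.3 under Python 3.11.15, intervals scipy 1.17.1, and plots matplotlib 3.10.9; the steps were tested on simulated data.

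Named pairs were the members among 11 textbook pairs and the 5 with the most tags in excess of input in each ChIP library. Others were the 5 lowest in H3K9ac with at least 5 input tags. The 3 leaning most to each side in H3K9ac with at least 50 tags were named as well. So were the 5 highest in 13HH3 over H3K9ac with at least 20 tags of 13HH3, and those nearest to the spacing limit. The highest, the lowest or well-known pairs of the gene groups were added. Examples within gene groups were chosen after their values were seen. The pairs, lists and comparisons were chosen with earlier results of these data known. Alternatives were other windows, bins, shifts, pseudocounts, scalings, thresholds, TSS choices and reference sets.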

Additional observations from a re-analysis of the deposited data

How the results depend on the processing

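Of 435 values recomputed under alternatives, 3 with an interval on 1 side of no difference turned their direction. The downstream over upstream maximum at lone TSSs in 7G8 was 0.927 over input and 1.14 without division by input, and in H3K9ac it was 1.06 over all lone TSSs and 0.980 (0.949 to 1.01) over CpG-rich ones, an alternative added after seeing the data. The difference between pairs and lone TSSs in the share with a GC box was 24.3 percentage points over all sites and -4.05 among CpG-rich sites alone, a comparison chosen after seeing the data. No paired analysis was possible because each group has 1 sample, and no replicate could be left out. Depth limits single pairs most, since the median pair has 19 input tags and 38 tags of 13HH3.

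The median log2 difference between pairs and lone TSSs in H3K9ac (1.55) was 1.42 within 500 bp, 1.40 within 3 kb, 1.40 with a pseudocount of 5, 1.45 with at least 5 input tags, 1.45 against lone TSSs without another protein-coding TSS and 0.523 against CpG-rich lone TSSs. That in 13HH3 (0.41) was 0.277 within 3 kb, 0.332 with a pseudocount of 5 and 0.0653 against CpG-rich lone TSSs. That in 7G8 (0.65) was 0.428, 0.541 and 0.320 under the same 3 alternatives. With both sets CpG-rich, an alternative added after seeing the data, the differences were 0.591, 0.106 and 0.354.

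The difference in the share at 2-fold was 42.0 percentage points in H3K9ac, 16.9 in 13HH3 and 31.5 in 7G8. It was 49.2, 7.96 and 16.6 within 3 kb, 45.4, 13.3 and 24.5 with a pseudocount of 5, 51.1, 2.57 and 4.91 at 4-fold, and 38.7, 22.8 and 40.2 where the exact interval had to exclude 1. Against CpG-rich lone TSSs it was 4.35, 2.57 (-1.02 to 6.24, which includes 0) and 19.1, and with both sets CpG-rich 7.08, 5.58 and 21.0. In 7G8 it was 26.6 within 500 bp. In H3K9ac it was 38.8 with input scaled away from TSSs, 38.9 with input scaled by chromosome (added after seeing the data) and 39.8 against lone TSSs without another protein-coding TSS.

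The minimum of the profile over its maxima depended on the division by input. For H3K9ac it was 0.887 over input, 0.466 without the division and 0.774 in bins of 50 bp. For 13HH3 it was 0.736, 0.404 and 0.601, and for 7G8 0.798 and, without division, 0.515. The plus over minus maximum of pairs, whose interval over input includes 1 in the 3 libraries, was 1.03 in H3K9ac, 1.09 in 13HH3 and 1.05 in 7G8 over input, and 0.952 (0.924 to 0.981), 0.949 and 0.960 without. The distance between H3K9ac maxima over input was 500, 700, 100, 100 and 400 bp from the narrowest to the widest spacing class. Without division by input it was 300, 500, 500, 700 and 1200 bp, the order that input itself has. Without a shift of tags it was 700 bp in the narrowest, 700 bp in the middle, 300 bp in the next and 100 bp in the widest class. In bins of 50 bp it was 600 bp in the middle and 100 bp in the widest class. The cause was not tested.

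The difference in 13HH3 over H3K9ac (-1.16) was -1.10 with a pseudocount of 5 and -0.457 with both sets CpG-rich, and -0.75 with the antibody 7G8. The share of pairs with unequal sides was 38.4% in 13HH3 and 35.0% in 7G8 with sides of 500 bp, and 53.6% in H3K9ac and 28.9% in 7G8 where the exact interval of the sides had to exclude 1, above the 45% and 24.3% of all protein-coding TSSs by that criterion, so that the order of pairs and other TSSs turned. The difference of gene sides from CpG-rich lone TSSs, with alternatives chosen after seeing the data, was 0.46 in 7G8 with sides of 500 bp, 0.29 in H3K9ac and 0.23 in 7G8 with a pseudocount of 5, and 0.429 in H3K9ac, -0.0793 in 13HH3 and 0.412 in 7G8 with CpG-rich pairs alone.

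The difference in GC content (5.33 percentage points) was 6.4 in windows of 500 bp, 8.67 with lone windows from 250 bp before to 50 bp after the TSS, and 4.67 against lone TSSs without another protein-coding TSS. That in the CpG ratio (0.343) was 0.402 and 0.310 under the last 2 of these. That in TATAAA (-7.24) was -11.3 in windows of 500 bp, -10.3 with lone windows from 250 bp before and -1.16 (-2.28 to 0.38, which includes 0) with both sets CpG-rich. In windows of 500 bp CCAAT differed by 2.46 (-1.18 to 6.09, which includes 0) and the GC box by 29.5, and NRF1 differed by 2.24 with both sets CpG-rich. Median GC content among CpG-rich sites was lower in pairs (64.3%) than in lone TSSs (68.0%).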

Other observations

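In 410 further pairs of protein-coding genes the annotated 5′ ends pass each other head to head, by a median of 343.5 bp and at most 1000 bp. They are no members of the set of divergent pairs above. Their median log2 over input was 2.66 (2.53 to 2.75) in H3K9ac, 0.89 in 13HH3 and 0.91 in 7G8, and 387 (94.4%), 179 (43.7%) and 183 (44.6%) of them were at 2-fold or more. The density of H3K9ac was highest beside the centre, with 4.92 tags per 100 bp, pair and 10000000 tags at -50 bp and 4.68 at 50 bp, where the members had their gap. For 13HH3 it was highest in the same bins, at 1.55 and 1.39. For 7G8 it was highest at -50 bp (1.22) and at 550 bp (1.18), with a minimum of 0.915 at 250 bp between them. Input was highest at -50 bp (0.638) and at 50 bp (0.669), and was 0.313 at the lowest bin of the members.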
